A study of Mus musculus with 2 samples.

Results

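The MaLR families described here were the families of the deposited table whose superfamily is given as MaLR, apart from names that begin with ORR1 or with MT followed by a letter. There were 58 such families among 634 families of transposable elements, and together they had 84821 of 3158619 annotated copies. All but 2 of the 58 were MLT1 families: 28 were long terminal repeats (LTRs) and 28 were internal parts, spread over 14 letters from MLT1A to MLT1N. The other 2 were MLT-int and MT-int. MT-int shares its name with the MT elements of rodents, and it was kept because no letter follows MT in its name. The table listed 0 members named MST and 0 named THE1, so the values below are those of MLT1 elements and of these 2 internal parts, which are counted with them unless MLT1 is named.

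The study asked by RNA-seq if endogenous retroviruses become active in mouse embryonic stem (ES) cells that lack Daxx, a histone chaperone that deposits the histone variant H3.3. Daxx was deleted by 48 h of 4-hydroxytamoxifen (4-OHT) at 1 µM with 3 days of recovery, and the control cells were given DMSO, the solvent. Both cultures were of strain B6/129, carried the genotype Daxx fl/fl; RosaCreERT (both Daxx alleles flanked by loxP sites, with a tamoxifen-inducible Cre) and were grown on inactivated feeder cells. Each condition was 1 library, with total RNA as the starting material. How RNA was selected from it for the library is not described here. The loss of Daxx, the activity of Cre and the exposure to 4-OHT cannot be told apart in this design, and no value has a replicate error or a p-value. Daxx itself, markers of ES cells and markers of the feeder cells were not analysed here, since the table holds families of repeats.

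MaLR stands for mammalian apparent LTR retrotransposon. These elements have 2 LTRs around an internal part that carries no known retroviral genes, and they are thought to have moved with enzymes of the related ERVL retroviruses. The LTR holds the promoter. Recombination between the 2 LTRs of a copy removes the internal part and leaves a single LTR, so LTR copies outnumber internal copies. MLT1 elements are old, being shared between human and mouse, and their copies have diverged and lie scattered through introns and between genes. THE1 elements are known from primates.

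The MLT1 elements had low levels in both libraries, and their median change lay next to that of the whole table. Levels are given in RPKM, reads per kilobase scaled here by the exonic reads of protein-coding genes. The median of all 58 members was 0.0205 RPKM in the Daxx-deleted library and 0.0164 RPKM in the control library, beside medians over all 634 families of 0.0269 RPKM in the Daxx-deleted library and 0.0209 RPKM in the control. The 28 MLT1 LTRs alone had a median of 0.0355 RPKM in the Daxx-deleted library and 0.0273 RPKM in the control, above those medians of all families, and the 28 MLT1 internal parts had 0.00543 RPKM in the Daxx-deleted library and 0.00168 RPKM in the control. A difference in bulk RNA does not tell fewer transcribing cells from less RNA per cell. Changes are given as log2((Daxx-deleted + 0.001) / (control + 0.001)), and ratios are quotients of the deposited values. For counts and medians, families were kept with 100 or more copies and a mean of 0.01 RPKM or more, here called the floor. The floor kept 35 of the 58 members, namely 26 MLT1 LTRs, 7 MLT1 internal parts, MLT-int and MT-int. The median level of these 35 was 0.0368 RPKM in the Daxx-deleted library and 0.0291 RPKM in the control, beside medians over the 436 families at the floor of 0.0350 RPKM in the Daxx-deleted library and 0.0291 RPKM in the control.

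Of the 35 members, 26 (74.3%) were higher in the Daxx-deleted library and 9 were lower, beside 78.9% higher and 21.1% lower among the 436 families at the floor. The members' median log2 change was 0.19, with quartiles of -0.01 and 0.35, beside a median of 0.18 and quartiles of 0.05 and 0.40 over all families. Relative to the median of all families, 18 members lay above and 17 below. At least 2-fold higher were 2 of the 35, beside 5.28% of all families, and at least 2-fold lower were 0 of the 35, beside 0.459%. At 1.5-fold, 5 members were higher and 0 were lower, beside 15.1% and 1.38% of all families. The members' shares thus lay near those of the whole table in each of these counts. Weighting each family by its copies, as if all copies were of equal length, uses every member and no floor. The weighted mean of the 58 was 0.0359 RPKM in the Daxx-deleted library and 0.0315 RPKM in the control, a ratio of 1.14, beside 1.07 for all families. The ratio was 1.146 over the LTR-class families that are no member, and 1.154 over the rodent MaLR families (ORR1 and MT). The rodent MaLR families are themselves part of those LTR-class families. Over the older ERVL families (ERVL without MERVL and MT2) the ratio was 1.079. The members' ratio thus lay next to those of the LTR class and of rodent MaLR, and the older ERVL ratio lay next to that of all families.

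**Figure D1:**
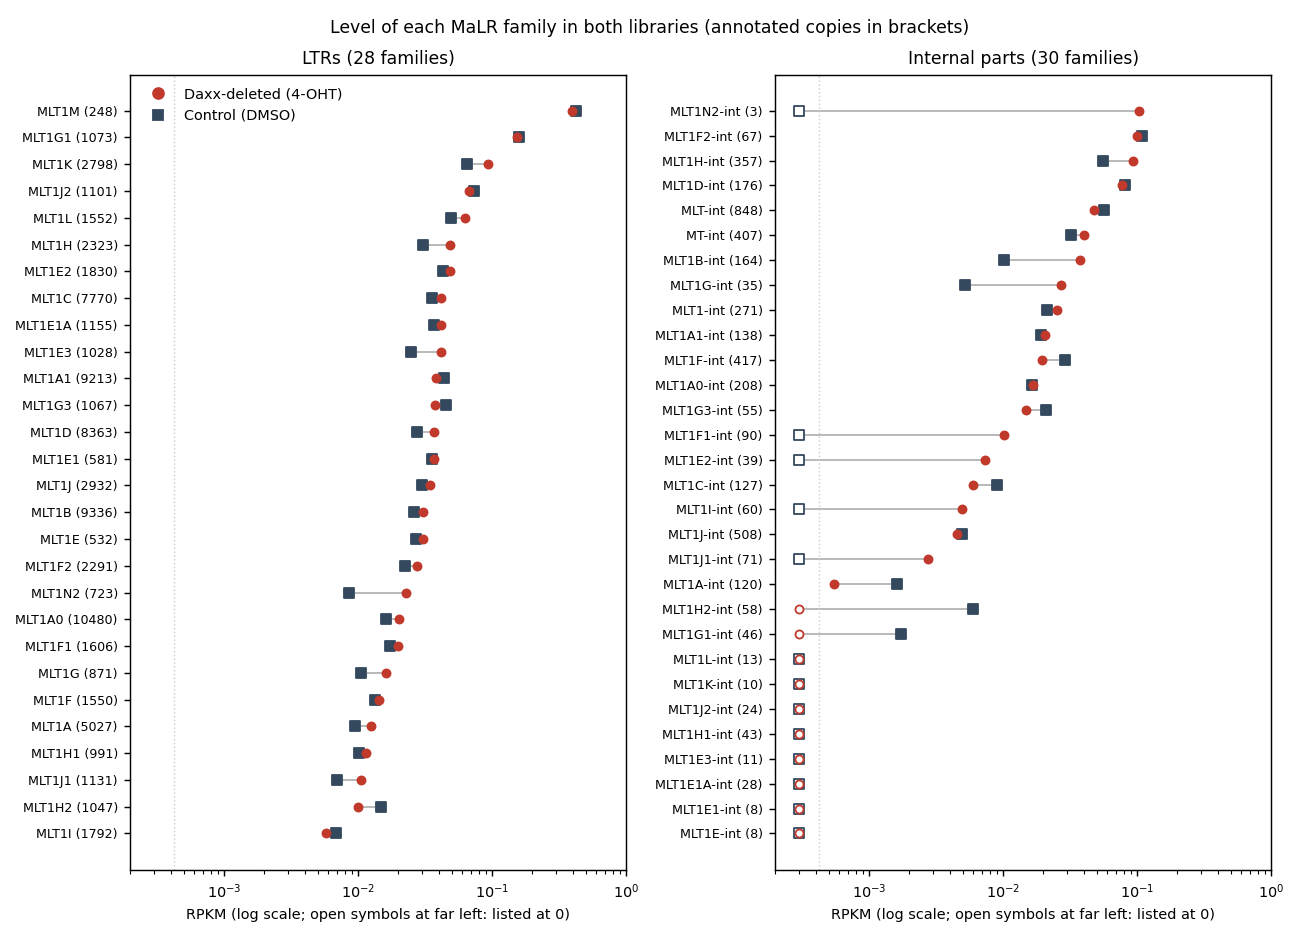
Level of each of the 58 families in RPKM on a log axis, LTRs on the left and internal parts on the right, with the Daxx-deleted library as circles and the control as squares; open symbols at the far left stand for values listed at 0. The LTR pairs lie close together, while several internal parts with few copies are at 0 in one or both libraries.

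The highest levels among the LTRs belonged to MLT1M and MLT1G1, and neither was higher in the Daxx-deleted library. MLT1M, with 248 copies, had 0.393 RPKM in the Daxx-deleted library and 0.420 RPKM in the control, a log2 change of -0.10. MLT1G1, with 1073 copies, had 0.154 RPKM in the Daxx-deleted library and 0.157 RPKM in the control, a log2 change of -0.03. MLT1M ranked 26 of 634 families in the Daxx-deleted library and 25 in the control, and it was the member with the highest level in both. MLT1K came next among the LTRs in the Daxx-deleted library. With 2798 copies, MLT1K had 0.0932 RPKM in the Daxx-deleted library and 0.0651 RPKM in the control, a ratio of 1.43. MLT1J2 had 0.0673 RPKM in the Daxx-deleted library and 0.0732 RPKM in the control, which put it below MLT1K in the first and above it in the second. MLT1L followed with 0.0631 RPKM in the Daxx-deleted library and 0.0496 RPKM in the control.

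The direction of the members' median differed between families of high and low level, which is a description with no test. At a mean of at least 0.05 RPKM, 3 of 8 members were higher in the Daxx-deleted library, and the median log2 change of the 8 was -0.06. Among all 145 families at that level 70.3% were higher and the median was 0.11. The related lists differed there. Of the older ERVL families (ERVL without MERVL and MT2) 7 of 14 were higher, with a median of 0.005. Of the rodent MaLR families 6 of 8 were higher, with a median of 0.14. The 3 members with a higher value were MLT1K, MLT1L and MLT1H-int, and the 5 with a lower value were MLT1M, MLT1G1, MLT1J2, MLT1D-int and MLT-int. At a mean under 0.05 RPKM, 23 of 27 members (85.2%) were higher with a median of 0.19, beside 83.2% of 291 families with a median of 0.22.

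The 2 members past 2-fold were MLT1N2, an LTR, and MLT1B-int, an internal part, both of low level and under 1000 copies. MLT1N2, with 723 copies, had 0.0229 RPKM in the Daxx-deleted library and 0.00854 RPKM in the control, a ratio of 2.68 and a log2 change of 1.32. It ranked 10 of 436 by change. MLT1B-int, with 164 copies, had 0.0375 RPKM in the Daxx-deleted library and 0.0102 RPKM in the control, a ratio of 3.69 and a log2 change of 1.79. It ranked 5 of 436. Read depth is not known for either library, and with it the counting error of these values. With a pseudocount of 0.01 RPKM 1 member was past 2-fold, and with 0.1 RPKM 0 were.

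A further 3 members were between 1.5-fold and 2-fold higher on the scale with the pseudocount. MLT1H-int had 0.0939 RPKM in the Daxx-deleted library and 0.0561 RPKM in the control. MLT1E3 had 0.0413 RPKM in the Daxx-deleted library and 0.0248 RPKM in the control. MLT1H had 0.0484 RPKM in the Daxx-deleted library and 0.0307 RPKM in the control. Their log2 changes were 0.73, 0.71 and 0.64. MLT1H and MLT1H-int are the LTR and the internal part of one element, so their changes may not be independent. MLT1G, MLT1K and MLT1D complete the 8 highest changes, with log2 changes of 0.57, 0.51 and 0.41. The ratio of the deposited values of MLT1G was 1.53, so without the pseudocount it too is past 1.5-fold.

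The lowest changes stayed within 1.5-fold. MLT1F-int, with 417 copies, had 0.0195 RPKM in the Daxx-deleted library and 0.0291 RPKM in the control, a log2 change of -0.55. MLT1H2, with 1047 copies, had 0.01002 RPKM in the Daxx-deleted library and 0.0148 RPKM in the control, a log2 change of -0.52. The sister families of MLT1H2 went the other way: MLT1H had a log2 change of 0.64 and MLT1H1 of 0.17. The next lowest were MLT1G3 with -0.27, MLT-int with -0.24, MLT1A1 with -0.20 and MLT1J2 with -0.12. MLT1M and MLT1D-int complete the 8 lowest, with -0.10 and -0.09.

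**Figure D2:**
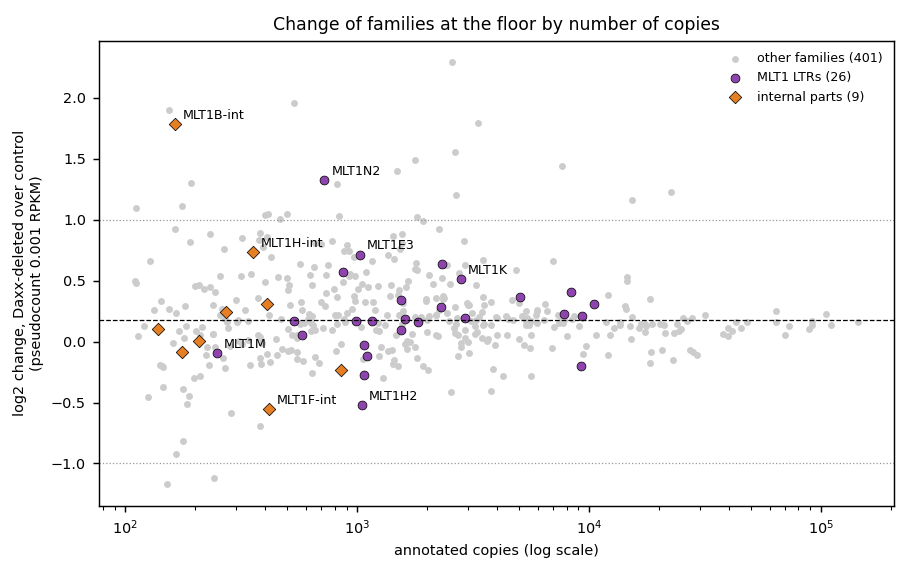
Log2 change, Daxx-deleted over control, against the number of annotated copies on a log axis for the 436 families at the floor, with 26 MLT1 LTRs as circles, 9 internal parts as diamonds and the other 401 families in grey; the dashed line is the median of all families at 0.18 and the dotted lines mark 2-fold. MLT1B-int at 1.79 and MLT1N2 at 1.32 lie above the upper dotted line, and no member lies below the lower one.

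The changes of the members were spread more widely among families with few copies. For the 20 members at the floor with at least 1000 copies the lowest log2 change was -0.52 and the highest 0.71, with a median of 0.20 and an interquartile range of 0.28, beside an interquartile range of 0.27 for the 237 other families with as many copies. For the 15 members at the floor with fewer copies the lowest was -0.55 and the highest 1.79, with a median of 0.17 and an interquartile range of 0.48, beside 0.54 for 164 other families. Both of the members past 2-fold were in the second group. Among the members with at least 1000 copies 15 of 20 were higher in the Daxx-deleted library and 0 were 2-fold higher, beside 197 (83.1%) and 10 of the 237 other families. Among those with fewer copies 11 of 15 were higher and 2 were 2-fold higher, beside 121 (73.8%) and 11 of the 164 other families.

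The MLT1 LTRs with the most copies belong to the letters A to D. MLT1A0, with 10480 copies, had 0.0204 RPKM in the Daxx-deleted library and 0.0162 RPKM in the control, a ratio of 1.25. MLT1B, with 9336 copies, had 0.0307 RPKM in the Daxx-deleted library and 0.0263 RPKM in the control, a ratio of 1.17. MLT1A1, with 9213 copies, was lower, with 0.0379 RPKM in the Daxx-deleted library and 0.0436 RPKM in the control. The MLT1A families therefore differed in direction: MLT1A, the third of them, had 0.0125 RPKM in the Daxx-deleted library and 0.00945 RPKM in the control. Weighted by copies, the 3 MLT1A LTRs had 0.0253 RPKM in the Daxx-deleted library and 0.0251 RPKM in the control, a ratio of 1.01. MLT1D, with 8363 copies, had 0.0368 RPKM in the Daxx-deleted library and 0.0275 RPKM in the control, a ratio of 1.34. MLT1C, with 7770 copies, had 0.0417 RPKM in the Daxx-deleted library and 0.0355 RPKM in the control, a ratio of 1.17.

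Among the letters with several LTRs, E and F were uniform in direction, and G, H and J were mixed, as A was. Of all 436 families at the floor 78.9% were higher, so a uniform direction of 3 or 5 families does not mark a letter out. All 5 MLT1E LTRs were higher in the Daxx-deleted library, although 4 of them lay below the median of all families. Their log2 changes were 0.71 for MLT1E3, 0.17 for MLT1E and MLT1E1A, 0.16 for MLT1E2 and 0.05 for MLT1E1. MLT1E2, with 1830 copies the largest of them, had 0.0483 RPKM in the Daxx-deleted library and 0.0430 RPKM in the control. All 3 MLT1F LTRs were also higher, with 0.29 for MLT1F2, 0.19 for MLT1F1 and 0.10 for MLT1F, and 1 of them lay below the median of all families. Of the 3 MLT1G LTRs 1 was higher: MLT1G had 0.0161 RPKM in the Daxx-deleted library and 0.0105 RPKM in the control, while MLT1G3 had 0.0372 RPKM in the Daxx-deleted library and 0.0451 RPKM in the control. Weighted by copies, the ratio was 0.968 for the MLT1G LTRs, 1.17 for the MLT1F LTRs and 1.19 for the MLT1E LTRs. The MLT1H LTRs came to a weighted ratio of 1.39, although MLT1H2 was lower. MLT1H1 had 0.0114 RPKM in the Daxx-deleted library and 0.0101 RPKM in the control. MLT1J, with 2932 copies, had 0.0344 RPKM in the Daxx-deleted library and 0.0300 RPKM in the control, whereas MLT1J2 was lower.

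**Figure D3:**
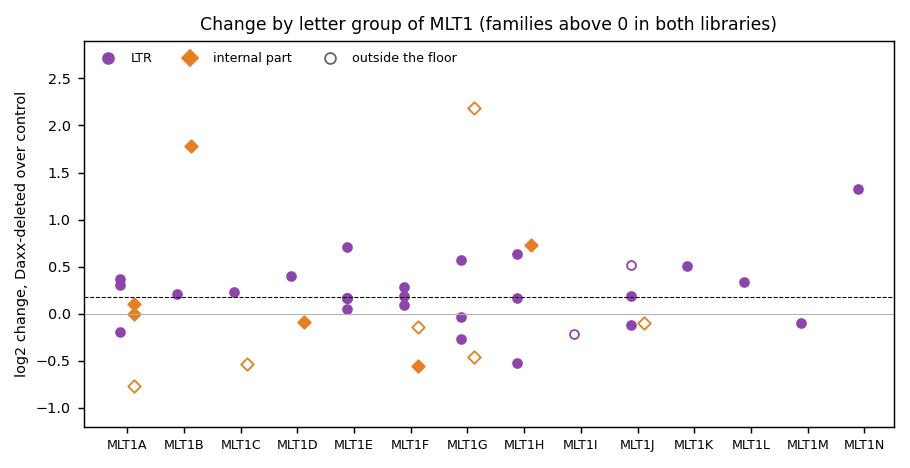
Log2 change, Daxx-deleted over control, by letter of the MLT1 name for families above 0 in both libraries, with LTRs as circles, internal parts as diamonds and open symbols for families outside the floor; the dashed line is the median of all families at 0.18. The 5 MLT1E and 3 MLT1F circles lie above 0, and the internal parts spread more widely than the LTRs.

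LTRs and internal parts were compared as the 2 roles within an element. Of the 26 LTRs at the floor, 20 (76.9%) were higher in the Daxx-deleted library, beside 78.9% of the 436 families at the floor. The LTRs had a median log2 change of 0.19 and an interquartile range of 0.30. Of the 7 MLT1 internal parts at the floor, 5 (71.4%) were higher, with a median of 0.10 and an interquartile range of 0.53. MLT1F-int had the most copies of the 7, with 417, and among the LTRs at the floor only MLT1M had fewer. The spread by role therefore cannot be told apart from the spread by number of copies. The median of the internal parts was -0.04 when the floor on the level was lifted, so its sign depends on which of them are counted. For 27 LTRs the table also listed an internal part of the same name. Both parts were at the floor in 6 of these pairs, and the 2 changes had the same sign in 3 of the 6. In MLT1D the internal part stood above its LTR and did not share its direction: MLT1D-int had 0.0769 RPKM in the Daxx-deleted library and 0.0817 RPKM in the control. In MLT1B the order of the parts differed between the libraries, with MLT1B-int above MLT1B in the Daxx-deleted library and below it in the control. In MLT1F, MLT1F-int was lower by 0.55 on the log2 scale while MLT1F had a log2 change of 0.10. The remaining pairs with both parts at the floor were those of MLT1A0, MLT1A1 and MLT1H. MLT1A0-int had 0.0166 RPKM in both libraries, and MLT1A1-int had 0.0206 RPKM in the Daxx-deleted library and 0.0191 RPKM in the control.

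Internal parts with no paired LTR were MLT-int, MLT1-int and MT-int. MLT-int, with 848 copies, had 0.0482 RPKM in the Daxx-deleted library and 0.0569 RPKM in the control. MLT1-int, with 271 copies, had 0.0255 RPKM in the Daxx-deleted library and 0.0214 RPKM in the control. MT-int, with 407 copies, had 0.0399 RPKM in the Daxx-deleted library and 0.0320 RPKM in the control. All 3 lay within 1.5-fold.

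Of the 23 members outside the floor, 18 had under 100 copies and 5 had at least 100 copies but a low mean. The 18 were all internal parts. Both libraries listed 8 of them at 0, and these had between 8 and 43 copies (MLT1E-int, MLT1E1-int, MLT1E1A-int, MLT1E3-int, MLT1H1-int, MLT1J2-int, MLT1K-int and MLT1L-int). A further 5 were listed at 0 in the control and above 0 in the Daxx-deleted library. Among these 5, MLT1N2-int had 0.104 RPKM in the Daxx-deleted library over 3 copies, and the others had 0.0102 RPKM (MLT1F1-int), 0.00737 RPKM (MLT1E2-int), 0.00493 RPKM (MLT1I-int) and 0.00277 RPKM (MLT1J1-int) there. In the opposite direction, MLT1H2-int and MLT1G1-int were listed at 0 in the Daxx-deleted library, against 0.00593 and 0.00174 RPKM in the control. Over the whole table, 22 families were listed at 0 in the control alone and 7 in the Daxx-deleted library alone.

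The other members with under 100 copies were above 0 in both libraries. MLT1G-int, with 35 copies, had 0.0271 RPKM in the Daxx-deleted library and 0.00518 RPKM in the control. MLT1F2-int, with 67 copies, had 0.0995 RPKM in the Daxx-deleted library and 0.109 RPKM in the control. MLT1G3-int, with 55 copies, had 0.0149 RPKM in the Daxx-deleted library and 0.0208 RPKM in the control. Pairs with a part outside the floor, and an internal part above 0 in at least 1 library, went both ways. LTR and internal part were both higher in the Daxx-deleted library for MLT1E2, MLT1F1, MLT1G, MLT1J1 and MLT1N2. Both were lower for MLT1G1, MLT1G3 and MLT1H2. The parts went opposite ways for MLT1A, MLT1C, MLT1F2, MLT1I and MLT1J. The 5 members with enough copies but a mean under 0.01 RPKM were MLT1J1, MLT1I, MLT1C-int, MLT1J-int and MLT1A-int. MLT1J1, the nearest to the floor, had 0.0105 RPKM in the Daxx-deleted library and 0.00702 RPKM in the control. MLT1I had 0.00574 RPKM in the Daxx-deleted library and 0.00683 RPKM in the control. The 3 internal parts were lower too. MLT1C-int had 0.00593 RPKM in the Daxx-deleted library and 0.00903 RPKM in the control, and MLT1A-int, the lowest, had 0.000546 RPKM in the Daxx-deleted library and 0.00163 RPKM in the control.

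The rodent MaLR families, ORR1 and MT, are the nearest relatives in the table. Their 43 families at the floor had a median log2 change of 0.18, and the members' median exceeded it by 0.01. The members had fewer copies, with a median of 463 per listed family against 3255 for the rodent families. These medians take in families outside the floor, and of the 35 members at the floor 20 had at least 1000 copies. The log2 changes of the members had an interquartile range of 0.37, against 0.15 for the rodent families, of which 90.7% were higher in the Daxx-deleted library. The 44 older ERVL families at the floor, that is ERVL without MERVL and MT2, had a median of 0.06, and 61.4% of them were higher in the Daxx-deleted library. L2 and MIR, other old elements but without LTRs, had a median of 0.13 over 9 families, and all 9 were higher. With 1 library per condition these differences between lists could not be tested.

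**Figure D4:**
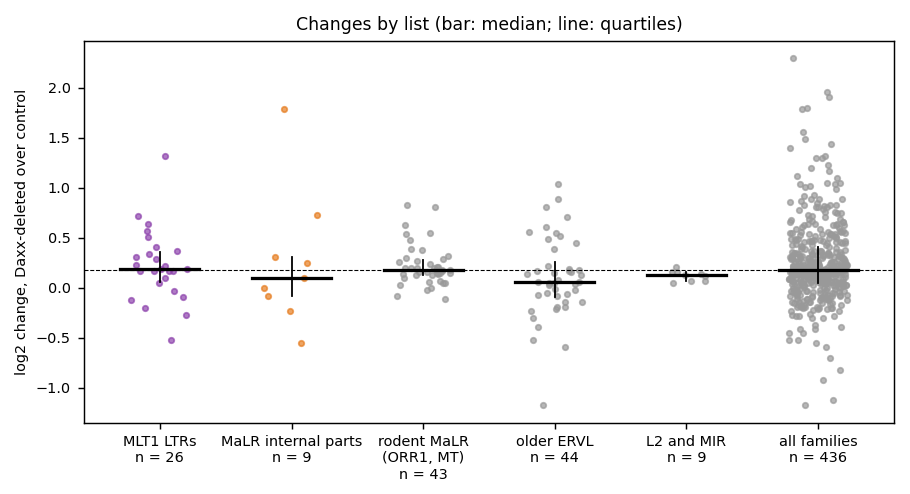
Log2 change, Daxx-deleted over control, of each family at the floor by list, with the median as a bar and the quartiles as a vertical line; the dashed line is the median of all 436 families at 0.18. The medians of the 26 MLT1 LTRs and of the 43 rodent MaLR families lie close to that line, and the older ERVL median lies below it.

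The levels of the members in the 2 libraries were also set against each other. Across the 35 members at the floor, the log2 levels in the Daxx-deleted and control libraries had a Pearson r of 0.916 and a Spearman rho of 0.88, and across the 401 other families r was 0.962 and rho was 0.938. These describe 2 libraries, and families may share reads. The summed level of the 35 members was 1.77 RPKM in the Daxx-deleted library and 1.62 RPKM in the control, a log2 ratio of 0.13. Without MLT1M, the highest of them, the log2 ratio of the sums was 0.20.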

How the data were processed

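Reads were aligned by the authors with JAGuaR 2.1, per the info sheet, a wrapper of BWA (0.7.10 in the submitters' processing notes) that adds Ensembl 67 exon junctions to the mm9 genome, and reads that map to several places were retained for the repeat families. The deposited RPKM values are scaled by exonic reads of protein-coding genes that leave out the most expressed 0.5% of exons and the mitochondrial and ribosomal proteins. The deposited count of annotated copies belongs to the family, not to a library. Not given in the sources used here are the sharing of multi-mapped reads, the repeat annotation and the use of strand. The library kit, per the labels' protocols a TruSeq RNA v2 kit, does not mark strand. Reads of an MLT1 copy inside a transcribed intron cannot be told apart from reads of the gene in these values.

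The columns were matched to the samples by treatment, and 0 columns of other samples were present. Read depth is unknown: what 1 read is worth depends on the length of a family, which is not in the table, so no interval is given. Calculations were made in Python 3.11.15 with scipy 1.17.1, pandas 2.3.3 and numpy 2.4.6. The counting of changed families was run on control values multiplied by known folds, with no noise and a far smaller pseudocount. That run checks the code and does not show how reliable the calls are at low levels. The members, lists, floor and pseudocount were chosen with earlier results of these data known. Named members are the 10 highest control levels, the 8 highest and 8 lowest changes, all past 2-fold, all LTR and internal pairs and the family with the most copies per letter. MT-int and MLT1-int fall outside that rule and were named after their values were seen. Other settings tried were a pseudocount of 0.0001, 0.01 or 0.1 RPKM, no floor or 0.05 RPKM, no minimum or 1000 copies, a threshold of 1.5-fold or 3-fold, the median of all families subtracted, the ratio of summed RPKM, and leaving out internal parts. No reference sequence of the elements was used here.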

Additional observations from a re-analysis of the deposited data

How the results depend on the processing

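With no replicates, a median was counted as moved past 0.1 on the log2 scale, a count past 1.5-fold and a single family past 1.5-fold. Of the alternative values for the lists, 42 stayed within these limits and 19 moved. Counts were compared as numbers and not as shares, so another threshold or another number of families kept can move a count by itself. With a pseudocount of 0.1 RPKM the median became 0.048 for all members and 0.049 for the MLT1 LTRs, and 0 members were 2-fold higher, against 1 with 0.01 RPKM; larger pseudocounts compress low values. With no floor the median of the MLT1 internal parts was -0.042. With a floor of 0.05 RPKM 8 members were left, 3 of them higher and 0 past 2-fold. The medians were -0.059 for all members, -0.032 for the LTRs and 0.32 for the MLT1 internal parts. The last rests only on MLT1H-int with 0.73 and MLT1D-int with -0.09, which went opposite ways. The difference from rodent MaLR was -0.20. The members 2-fold higher numbered 4 of 39 without a minimum of copies. These took in MLT1G-int, with 35 copies, and MLT1N2-int, with 3 copies. The latter was listed at 0 in the control, so its change rests on the pseudocount. At 1000 copies or more 0 of 20 were 2-fold higher and 15 of 20 had a higher value. Of the 35 members at the floor 5 were 1.5-fold higher, beside 15.1% of all families, and 1 was 3-fold higher. The share of all families was not calculated with other pseudocounts, without a minimum of copies or at 3-fold. After subtraction of the median of all families the medians were 0.0093 for all members, 0.012 for the LTRs and -0.074 for the internal parts. Leaving out MT-int and MLT-int, an alternative added after the data were seen, moved 0 of 4 values. For 33 single families 130 values stayed and 2 moved, MLT1B-int to 0.32 and MLT1N2 to 0.18, both with a pseudocount of 0.1 RPKM. Subtraction of the median changed the sign of 8 families, each between 0.00 and 0.17 before it. No result could be given for MST and THE1. No paired analysis was possible because there is 1 library per condition. The unknown depth limits what the low families can show.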
